A study of Homo sapiens with 40 samples.

Results

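The 5 genes described here are NPPB, HAS3, SFRP1, MSX1 and RASD2, and they were picked because their RNA was higher after IL-13 in these same libraries. They were found as the rows of the deposited table whose Ensembl IDs carry those symbols, 5 of 62263 genes, and 5 of 5 passed the filter on low counts that left 16735 genes. The series measured RNA of BEAS-2B, an immortalised human bronchial epithelial cell line, by Frac-seq, which sequences the total RNA of a lysate (input) beside the RNA bound to polyribosomes (polysome). The cells constitutively carried a control short hairpin RNA (shControl, called control) or a hairpin against IGF2BP3 (shIGF2BP3, called knockdown), IGF2BP3 being a protein that binds mRNAs. All groups were grown in 10% serum and serum-starved in 2% media, and the IL-13 groups then received 100 ng/ml of the cytokine. Harvest was after 24 h in all groups, per the protocol, while the series' design text speaks of overnight stimulation. The 8 groups of 5 libraries were input and polysome RNA of unstimulated control, IL-13 control, unstimulated knockdown and IL-13 knockdown cells. There was 1 line per hairpin, so the hairpin's effect and any other difference between the lines cannot be told apart. The labels do not say whether the 5 replicates were separate cultures, so p-values measure only the spread between these libraries, which may be technical.

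IL-13 is a type 2 cytokine of asthma and allergy that acts on airway epithelium through a receptor shared with IL-4, JAK kinases and the transcription factor STAT6. The 5 genes belong to different systems. NPPB encodes the precursor of B-type natriuretic peptide, a hormone best known from heart muscle that signals through guanylyl cyclase receptors. HAS3 encodes a hyaluronan synthase, a membrane enzyme that makes the matrix sugar polymer hyaluronan, and SFRP1 encodes a secreted protein that binds Wnt ligands and keeps them from their Frizzled receptors. MSX1 encodes a homeobox transcription factor of embryonic tissues that responds to bone morphogenetic proteins (BMPs). RASD2 encodes Rhes, a small Ras-like GTPase best known from the striatum of the brain.

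The bases just before the start are shown for MSX1, RASD2 and HAS3, the 3 of the 5 genes with a window in the RefSeq table used, so that the promoters of genes with like IL-13 differences can be compared. They are the 250 bases before the RefSeq start in GRCh38.p14, 5′ to 3′ on the gene's strand, with matches to the motifs searched in capitals.
MSX1 (chr4:4859415-4859664, plus strand): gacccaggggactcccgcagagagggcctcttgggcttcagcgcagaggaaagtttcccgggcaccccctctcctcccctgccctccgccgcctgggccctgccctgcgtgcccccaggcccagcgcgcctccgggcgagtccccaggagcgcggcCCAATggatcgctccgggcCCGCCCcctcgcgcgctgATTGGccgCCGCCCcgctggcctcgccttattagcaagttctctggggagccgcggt
RASD2 (chr22:35532556-35532805, plus strand): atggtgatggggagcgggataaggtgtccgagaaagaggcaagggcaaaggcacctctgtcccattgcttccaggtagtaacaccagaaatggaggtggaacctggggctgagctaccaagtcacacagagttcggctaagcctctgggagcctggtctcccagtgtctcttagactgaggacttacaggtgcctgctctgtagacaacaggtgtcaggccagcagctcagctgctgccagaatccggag
HAS3 (chr16:69107290-69107539, plus strand): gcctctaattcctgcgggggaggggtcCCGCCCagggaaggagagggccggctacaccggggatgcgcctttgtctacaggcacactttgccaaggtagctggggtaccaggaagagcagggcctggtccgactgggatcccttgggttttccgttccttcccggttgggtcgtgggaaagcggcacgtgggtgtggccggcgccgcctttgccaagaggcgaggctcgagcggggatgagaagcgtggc
None of these windows held, on either strand, the palindrome that STAT6 is known to favour (TTC, 4 bases of any kind, then GAA) or the form with 3 bases between TTC and GAA that other STAT proteins favour. Of 35116 RefSeq windows of the same length, 5.38% held the first and 6.57% the second. TATAAA was also not found in the 3 windows and was in 10.7% of all windows. CCAAT (32.0% of windows) matched MSX1 on both strands, 94 and 57 bases before the start, and GGGCGG (42.6%) matched MSX1 at 2 places and HAS3 at 1, all on the minus strand. The capitals mark these CCAAT and GGGCGG matches, 2 motifs that were added after the other 3 had given none. No matches to one motif overlapped those of another. In the GENCODE annotation of GRCh38 the window of MSX1 ended 2 bases before the gene's start and that of RASD2 8063 bases before it, whereas the window of HAS3 lay inside the annotated gene, so RefSeq and GENCODE place the starts of RASD2 and HAS3 differently. The files do not show which start the cells used. NPPB lies on chromosome 1 (chr1:11857464-11858931, minus strand) in GENCODE.

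Input libraries held between 14044352 and 40441061 estimated counts and polysome libraries between 1816848 and 34082191, with 3 polysome libraries of knockdown cells under 5000000. IGF2BP3 itself, the targeted gene, measured 35.2 CPM ± 11.3 (SD, n = 5) in unstimulated control input and 24.9 CPM ± 3.02 (SD, n = 5) in unstimulated knockdown input, a difference that was not called, so directions between the lines rest on the labels. Its log2 difference, knockdown minus control, was -0.50 ± 0.37 (SE) in unstimulated and -0.45 ± 0.37 in IL-13 input. In polysome RNA it was only -0.10 ± 0.39 unstimulated and -0.15 ± 0.37 with IL-13, also not called. CPM are counts scaled to the size of each library, and a gene is called here where edgeR's quasi-likelihood test gave a Benjamini-Hochberg adjusted p under 0.05 over all 16735 genes. Keratins of simple epithelium were present in every library (KRT18 between 362.7 and 909.9 TPM, KRT8 between 152.5 and 1519 TPM), beside the mesenchymal VIM (335.7 to 1525 TPM), where TPM is an abundance scaled for transcript length. Other defining epithelial and airway markers were near 0: EPCAM reached 1.68 TPM, CDH1 1.14 TPM, FOXJ1 0.413 TPM and SCGB1A1 0.381 TPM. Heart muscle's MYH6 and ACTN2 were at 0 in 37 and 40 of the 40 libraries, and TNNT2 reached 14.2 TPM. Of 4 immune markers, PTPRC and CD3E were each at 0 in 39 libraries and LST1 in 36, whereas CD14 was present in every library, between 3.22 and 37.4 TPM. The summed level of 7 epithelial markers in control input was 1283 to 1652 TPM unstimulated and 1490 to 2308 TPM with IL-13, and its part in the results was not tested.

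NPPB and SFRP1 were abundant mRNAs and MSX1 and RASD2 were rare ones. Per length, the group means ran from 95.1 to 587 TPM for NPPB, from 31.8 to 123 TPM for SFRP1, from 2.23 to 14.3 TPM for HAS3, from 0.633 to 3.06 TPM for RASD2 and from 0.0675 to 2.56 TPM for MSX1. Ordered by mean CPM, the 4 IL-13 groups stood above the 4 unstimulated groups for each gene, and each group's range overlapped that of the next in the order. The highest mean was in IL-13 knockdown polysome RNA for NPPB, SFRP1 and RASD2, and in IL-13 control polysome RNA for HAS3 and MSX1. In bulk RNA, more cells that express a gene and more RNA per cell cannot be told apart.

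**Figure D1:**
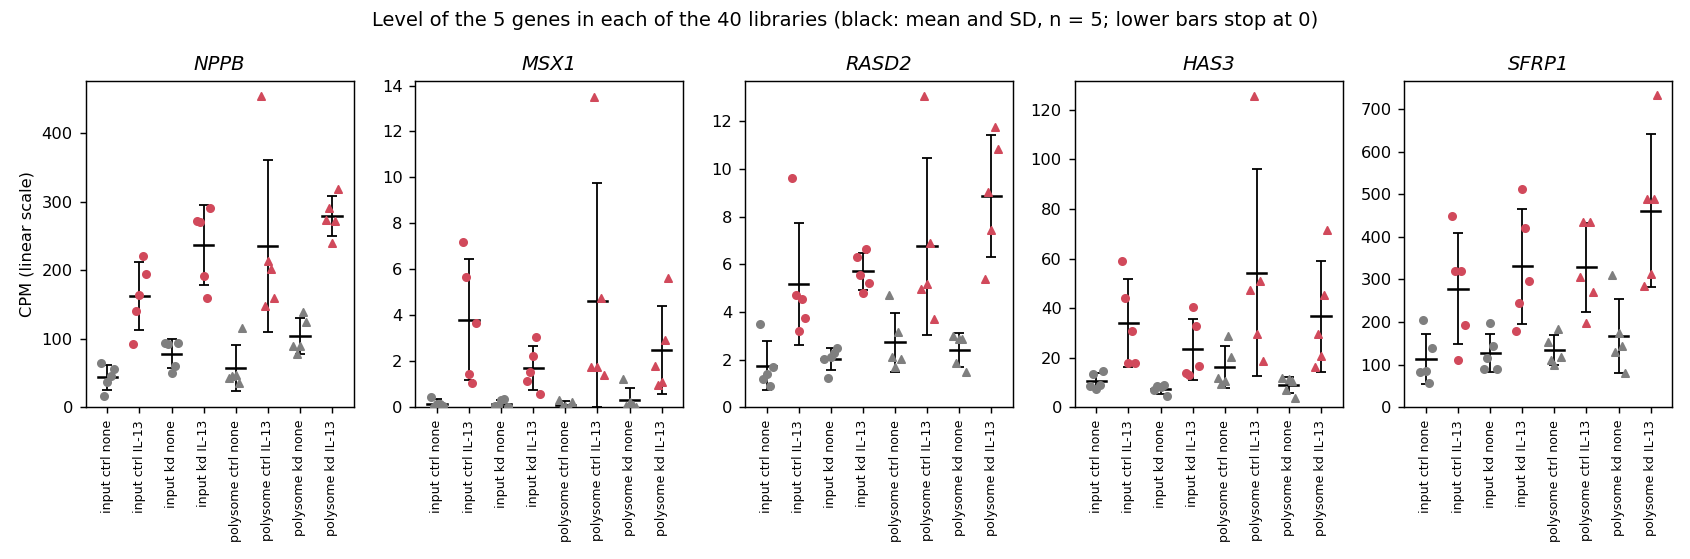
Level of each gene (CPM, linear axis, one panel per gene) in each of the 40 libraries, with input libraries as circles and polysome libraries as triangles, unstimulated in grey and IL-13 in red; ctrl is the control line, kd the knockdown line. Black bars are the mean and SD of 5 libraries. All 5 IL-13 libraries of NPPB lie above all 5 unstimulated libraries of the same line and fraction in each of the 4 pairs of groups, while SFRP1 overlaps in 3 of the 4. This separation is a description, since the genes were chosen for higher RNA after IL-13.

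The genes were chosen for higher RNA after IL-13, so overlap between groups, here and below, is a description. The share of all genes without overlap is not given. NPPB (ENSG00000120937.9) was the one of the 5 genes whose treated and untreated libraries did not overlap in any of the 4 pairs of groups of the same line and fraction. Over both lines together its input libraries did overlap, with 9 of 10 treated libraries above all untreated ones. In control input it measured 64.7, 16.5, 37.1, 45.2 and 55.3 CPM in the 5 unstimulated libraries. With IL-13 the 5 libraries measured 91.7, 140.4, 163, 221 and 194 CPM. The lowest treated library stood above the highest untreated one, and the fitted log2 fold change was 1.89 ± 0.32 (SE), 3.71-fold. In knockdown input the unstimulated libraries measured 94.2, 92.9, 50.1, 59.9 and 93.2 CPM and the IL-13 libraries 272, 271, 191, 160 and 292 CPM. These groups did not overlap either, with a log2 fold change of 1.60 ± 0.32. Control polysome RNA gave 42.7, 45.1, 47.1, 35.9 and 116 CPM unstimulated and 455, 147, 214, 202 and 159.7 CPM with IL-13. Replicate 1 of the treated group stood 2.25-fold above its group's median and replicate 5 of the untreated group 2.57-fold, and the log2 fold change was 2.04 ± 0.33. Knockdown polysome RNA gave 89.0, 77.8, 90.2, 139.9 and 124 CPM without and 274, 291, 239.7, 272 and 319 CPM with IL-13. This was the tightest treated group of NPPB, with an SD of 29.0 CPM around a mean of 279 CPM, and its log2 fold change was 1.42 ± 0.32.

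HAS3 (ENSG00000103044.11), the hyaluronan synthase, went in control input, by 3.21-fold, from 8.71, 13.5, 7.19, 8.99 and 14.6 CPM unstimulated to 59.2, 44.1, 17.9, 30.8 and 17.8 CPM with IL-13. The treated libraries comprised a low pair, replicates 3 and 5, and 3 others of 30.8 CPM or more, and all 5 lay above the untreated ones (log2 fold change 1.68 ± 0.44, SE). In knockdown input the values were 6.97, 8.37, 8.06, 8.89 and 4.36 CPM unstimulated and 13.9, 13.1, 40.3, 32.7 and 16.7 CPM with IL-13. Again no libraries overlapped, and again some treated libraries stayed just above the untreated range while others were several-fold above it (log2 fold change 1.67 ± 0.44). Polysome RNA of control cells held 11.9, 9.18, 10.5, 28.9 and 20.4 CPM unstimulated and 47.1, 126, 29.7, 50.8 and 18.5 CPM with IL-13. Here 1 treated library lay under the highest untreated library, and replicate 2 of the treated group was the highest HAS3 value of the series (log2 fold change 1.74 ± 0.44). Polysome RNA of knockdown cells held 11.7, 7.02, 11.3, 10.8 and 3.91 CPM unstimulated and 16.3, 29.6, 20.6, 45.1 and 71.5 CPM with IL-13. The groups did not overlap (log2 fold change 1.97 ± 0.46). The lowest untreated and the highest treated value, both of replicate 5, came from libraries under 5000000 counts, with 8 and 165 counts of HAS3. HAS3 shares 710 bases of its 3′ part with CHTF8 on the opposite strand in GENCODE, and the sources used here do not say whether counting used strand. CHTF8 itself had IL-13 log2 fold changes of 0.11, -0.01, -0.10 and -0.04 in the same 4 comparisons.

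SFRP1 (ENSG00000104332.12, on chromosome 8), the secreted Wnt antagonist, had the smallest IL-13 difference of the 5 genes in each of the comparisons but that of knockdown polysome RNA, where NPPB's was smaller. Unstimulated control input libraries measured 83.8, 205, 84.1, 56.5 and 138 CPM and those with IL-13 449, 320.4, 110, 319 and 194 CPM. The groups overlapped: 3 of 5 treated libraries lay above all untreated ones, with a log2 fold change of 1.30 ± 0.36 (SE). Knockdown input libraries measured 89.8, 116, 197, 144 and 90.5 CPM and 179.5, 244, 511, 421 and 297 CPM in the same order. All but 1 treated library exceeded the untreated range (log2 fold change 1.37 ± 0.36). In polysome RNA of control cells the values were 154, 111, 99.0, 185 and 118 CPM and 305, 434, 197, 434 and 271 CPM, the only SFRP1 comparison without overlap (log2 fold change 1.30 ± 0.36). In polysome RNA of knockdown cells they were 311, 130, 174, 144 and 80.7 CPM and 284, 489, 312, 489 and 732 CPM. The untreated replicate 1, one of the libraries under 5000000 counts, reached into the treated range there (log2 fold change 1.45 ± 0.36). The lowest untreated and the highest treated value, both of replicate 5, also came from such libraries.

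MSX1 (ENSG00000163132.8), the homeobox gene, was nearly silent without IL-13. Its estimated counts in unstimulated control input were 13, 0, 6, 5 and 1, against 165, 177, 41, 42 and 84 with IL-13. Scaled, that was 0.464, 0, 0.159, 0.145 and 0.0407 CPM against 7.18, 5.68, 1.46, 1.06 and 3.68 CPM. The groups did not overlap, and the treated libraries were themselves spread from 1.06 to 7.18 CPM. Summed over the group, 509 against 25 counts gave a ratio of 22.3 after scaling (95% counting interval 14.9 to 34.7, which covers counting error only). In knockdown input the counts were 1, 1, 9, 14 and 0 unstimulated and 28, 39, 67, 109 and 8 with IL-13, a ratio of 9.83 (6.51 to 15.5) and again without overlap. In control polysome RNA they were 3, 0, 1, 0 and 2 and 16, 307, 52, 161 and 13, a ratio of 61.6 (28.1 to 169). Most of this treated sum came from replicate 2, at 13.5 CPM, with the other 4 libraries between 1.41 and 4.74 CPM. In knockdown polysome RNA they were 5, 1, 4, 2 and 0 and 48, 25, 38.9, 91 and 13, a ratio of 9.37 (5.25 to 18.4). The CPM ranges overlapped there, since the 5 counts of the untreated replicate 1 came from a library under 5000000 counts and scaled to 1.25 CPM. The fitted log2 fold changes were 4.52 ± 0.92, 3.31 ± 0.89, 5.51 ± 1.05 and 3.16 ± 1.00 (SE) in that order, the largest folds and the largest errors of the 5 genes. Without replicate 1 of unstimulated control cells, which held 13 of the 25 untreated counts in control input and 3 of 6 in control polysome RNA, they were 5.33 and 6.32 in these 2 comparisons. Without the untreated replicate 1 of knockdown polysome RNA the last was 4.23.

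RASD2 (ENSG00000100302.7), the Ras-like GTPase, was expressed at a few CPM in every library. Unstimulated control input libraries measured 3.50, 1.20, 1.41, 0.873 and 1.71 CPM and those with IL-13 9.62, 4.72, 3.20, 4.56 and 3.77 CPM. The untreated replicate 1 lay inside the treated range, and the treated replicate 1 stood far above its group (log2 fold change 1.58 ± 0.36, SE). Knockdown input was tighter, at 2.04, 1.25, 2.11, 2.30 and 2.48 CPM unstimulated and 6.31, 5.53, 4.81, 6.64 and 5.21 CPM with IL-13. These groups did not overlap (log2 fold change 1.48 ± 0.36). Control polysome RNA gave 4.70, 2.09, 1.68, 3.16 and 2.01 CPM and 4.98, 13.1, 5.18, 6.88 and 3.69 CPM, with 1 untreated library in the treated range (log2 fold change 1.32 ± 0.36). Knockdown polysome RNA gave 2.99, 1.85, 2.86, 2.86 and 1.47 CPM and 5.37, 9.02, 7.44, 11.8 and 10.8 CPM. No library overlapped there (log2 fold change 1.84 ± 0.38). Replicate 5 of the untreated and of the treated group came from libraries under 5000000 counts, with 3 and 25 counts of RASD2.

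The members were chosen on these comparisons, so the calls are a description and read as nothing more. In control input 2 of 5 members were called higher, NPPB and MSX1, where 0.0777% of all genes were. In knockdown input 1 was called, NPPB (0.0837% of all genes). In control polysome RNA NPPB and MSX1 were called (0.0956%), and in knockdown polysome RNA only RASD2 was (0.0896%). HAS3 and SFRP1 were called in none of the 4. Averaged over both lines, a comparison added after seeing the data, 5 of 5 members were called in input (0.149% of all genes) and 5 of 5 in polysome RNA (0.179%). The averaged log2 fold changes in input were 1.75 ± 0.23 for NPPB, 1.68 ± 0.31 for HAS3, 1.34 ± 0.26 for SFRP1, 3.92 ± 0.64 for MSX1 and 1.53 ± 0.26 for RASD2 (SE). The medians of the 5 members in the 4 single comparisons were 1.68, 1.60, 1.74 and 1.84 in the order above, and the medians of all genes tested were between -0.02 and 0.00. CISH, a STAT-induced inhibitor of cytokine signalling used here as a yardstick, had log2 fold changes of 4.01 ± 0.25, 3.90 ± 0.25, 3.95 ± 0.25 and 4.55 ± 0.27. MSX1's values lay on either side of those of CISH, and the other members' values were below CISH in each comparison. Single libraries decided several of these calls. MSX1 was not called in control polysome RNA without replicate 2 of the IL-13 group (log2 fold change 4.56), and in control input it was called in 4 of 10 fits that each left out 1 library. NPPB in knockdown input was called in 5 of 10 such fits and RASD2 in knockdown polysome RNA in 3 of 10, whereas NPPB was called in 10 of 10 in both control comparisons. The averaged comparisons called 5 of 5 members in each of 20 such fits.

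**Figure D2:**
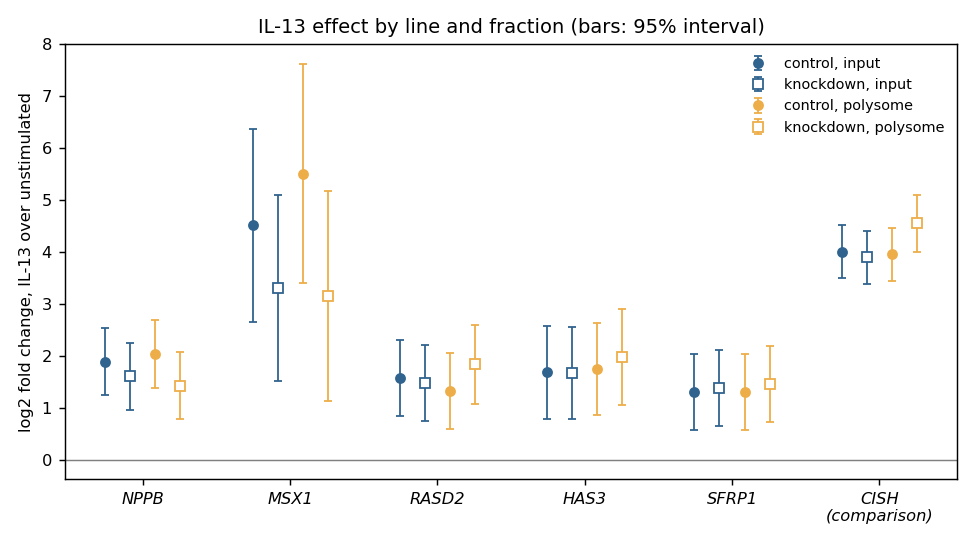
Log2 fold change of IL-13 over unstimulated cells for the 5 genes and CISH, in the control line (filled) and the knockdown line (open), in input (blue) and polysome RNA (yellow). Points are fitted values and bars 95% intervals from the 40-library fit; the 4 values of NPPB lie between 1.42 and 2.04, and the intervals of MSX1 are the widest.

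Did the line carrying the IGF2BP3 hairpin differ in these genes or in their response? By edgeR's quasi-likelihood test, 0 of 5 members were called between the lines in unstimulated input (0.0120% of all genes called), IL-13 input (0.00%), unstimulated polysome RNA (0.0299%) or IL-13 polysome RNA (0.0896%). By unadjusted p, 1 member passed 0.05 in unstimulated input and 1 in unstimulated polysome RNA, NPPB in both. Of all 16735 genes, 497 and 1242 passed 0.05 there. DESeq2's Wald test called 0 of 5 in each comparison, but its share of all genes is not given, so these counts are only a description. NPPB measured 78.1 ± 21.4 CPM in knockdown against 43.7 ± 18.4 CPM in control unstimulated input (SD, n = 5 each), a log2 difference of 0.84 ± 0.32 (SE, edgeR adjusted p = 1.00). In unstimulated polysome RNA the difference was 0.86 ± 0.32 (edgeR adjusted p = 0.412), with 104.2 CPM ± 26.4 in knockdown against 57.4 CPM ± 33.1 in control (SD, n = 5 each). With IL-13 the same difference was 0.55 ± 0.31 in input and 0.24 ± 0.31 in polysome RNA. HAS3 was lower in knockdown in 4 of 4 comparisons, by log2 differences of -0.52 ± 0.43 (unstimulated) and -0.54 ± 0.43 (IL-13) in input, then -0.82 ± 0.45 (unstimulated) and -0.60 ± 0.43 (IL-13) in polysome RNA, each within the libraries' spread (edgeR adjusted p between 0.715 and 1.00). The other differences had 95% intervals that spanned 0, for example -0.47 to 0.97 for SFRP1 and -0.57 to 0.85 for RASD2 in IL-13 input.

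The IL-13 effect itself was compared between the lines and between the fractions by interaction terms. The members were chosen on these IL-13 effects, so the values below are read with that limit. No member was called in any of the 4 interactions, and edgeR called 0 of 16735 genes in each (0.00%), while an unadjusted p below 0.05 was reached by 153, 563, 326 and 219 genes for the lines in input, the lines in polysome RNA, the fractions in control and the fractions in knockdown cells. DESeq2's Wald test called 6, 25, 20 and 5 genes there and 0 of 5 members. MSX1's IL-13 effect differed between knockdown and control cells by -1.21 ± 1.20 in input and -2.35 ± 1.43 in polysome RNA on the log2 scale (SE), with 95% intervals of -3.64 to 1.23 and -5.25 to 0.55. Without replicate 2 of IL-13 control polysome RNA the latter was -1.42. For HAS3, SFRP1 and RASD2 in input, the difference between the lines was -0.01 ± 0.62, 0.08 ± 0.50 and -0.09 ± 0.50, with 95% intervals of -1.27 to 1.24, -0.94 to 1.10 and -1.10 to 0.92. For NPPB it was -0.29 ± 0.44 in input (-1.18 to 0.61) and -0.62 ± 0.44 in polysome RNA (-1.52 to 0.28). Between the fractions, the IL-13 effect of NPPB differed by 0.15 ± 0.44 in control and -0.18 ± 0.44 in knockdown cells, and that of SFRP1 by 0.00 ± 0.50 and 0.08 ± 0.50. On simulated data with these library sizes, this interaction in input recovered 4.5% of genes changed 2-fold and 56% of genes changed 4-fold. The changed genes were drawn at random over all levels, and the other genes had the same mean in each group. These shares therefore do not give the recovery for the 5 members.

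Fitted levels of the 5 genes were mostly higher in polysome RNA than in input, but no difference passed the test. Of 20 values, 4 groups of 5 genes, 19 were above 0, the exception being MSX1 in unstimulated control cells at -0.70 ± 1.07 (SE). By edgeR's test 0 of 5 members were called in each of the 4 groups, where 40.2% (unstimulated control), 38.5% (unstimulated knockdown), 39.3% (IL-13 control) and 39.3% (IL-13 knockdown) of all genes were called in either direction. DESeq2's Wald test called 0 of 5, but its share of all genes is not given, so this count is only a description. By edgeR's unadjusted p, 0 of 5 passed 0.05, where 7883, 7673, 7741 and 7711 of all 16735 genes did in that order. The median log2 difference of the members was 0.39, 0.40, 0.39 and 0.48 in that order, against -0.20, -0.20, -0.19 and -0.23 over all genes. HAS3 had 0.62 ± 0.43 and 0.68 ± 0.43 in unstimulated and IL-13 control cells, and RASD2 0.65 ± 0.36 and 0.63 ± 0.35 in unstimulated control and IL-13 knockdown cells (edgeR adjusted p between 0.158 and 0.270). The labels do not say whether a replicate number marks the same culture in both fractions, so pairs by number are a description. Taken in pairs of libraries of the same group of cells and replicate number, polysome over input ranged for NPPB from -0.59 to 2.30 on the log2(CPM + 1) scale, with 14 of 20 pairs above 0. It was above 0 in 16 of 20 pairs for RASD2, 15 for HAS3, 14 for SFRP1 and 8 for MSX1. RASD2 was the member nearest to a call: fitted on the 10 libraries of IL-13 knockdown cells alone, its difference was 0.77 (edgeR adjusted p = 0.0203), and without replicate 1 of unstimulated control input it was 1.07 in unstimulated control cells (edgeR adjusted p = 0.0183). The fit on 10 libraries called 6779 of all genes. Without replicate 5 of unstimulated control polysome RNA, the difference of NPPB in those cells was -0.04 in place of 0.39. MSX1's differences changed sign when 1 library was left out, to -0.65 without replicate 2 of IL-13 control polysome RNA and to -0.51 without replicate 1 of unstimulated knockdown polysome RNA.

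**Figure D3:**
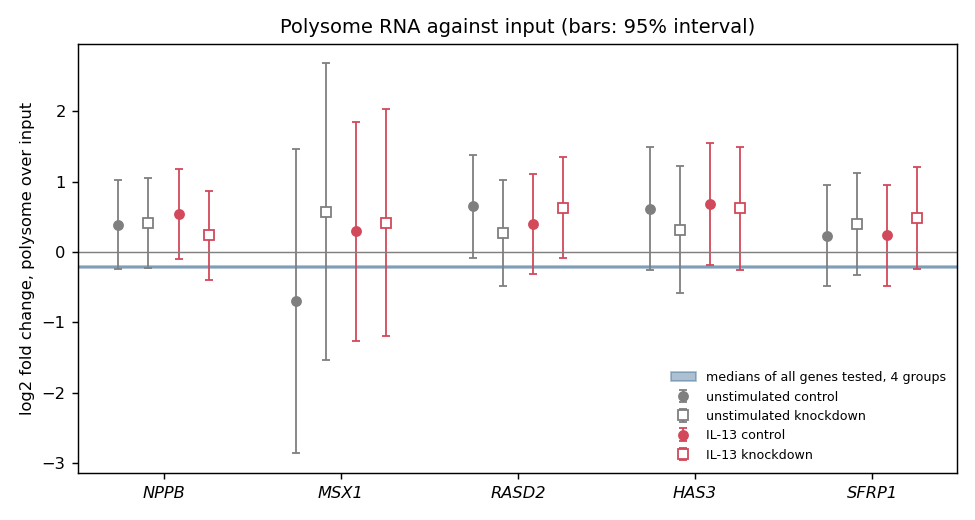
Log2 fold change of polysome over input RNA for the 5 genes in the 4 kinds of cells (grey unstimulated, red IL-13, filled control line, open knockdown line), with 95% intervals from the 40-library fit. The blue band spans the medians of all genes tested, -0.23 to -0.19; nearly all points lie above it, and each interval crosses 0.

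Within groups the genes did not vary independently, which the choice of the genes on their group means did not use. Each library's log2(CPM + 1) was taken as its deviation from the mean of its group, over 20 libraries per fraction, and p-values came from permutations of the libraries within groups, two-sided, Benjamini-Hochberg adjusted over the 20 pairs of genes and fractions. In input, HAS3 and SFRP1 deviated together (Pearson's r = 0.827, adjusted permutation p = 0.0014; Spearman's rho = 0.82, adjusted p = 0.00233; n = 20). Without the 2 libraries farthest from the median of HAS3 r was 0.78. This r was at the 99.9th percentile of HAS3's correlations with the genes whose mean over all libraries was at least 1 CPM. NPPB went the other way in input: its r was -0.636 with SFRP1 (adjusted permutation p = 0.0187) and -0.546 with HAS3 (adjusted permutation p = 0.0253). Among NPPB's correlations with the same set of genes, these r were at percentiles 3.81 and 7.82. Some other genes thus had a lower r with NPPB. Spearman's rho for these 2 pairs, -0.499 and -0.486, had an adjusted permutation p of 0.102 each, and without the 2 farthest libraries r was -0.447 and -0.453. The other 7 pairs in input missed the threshold, with r of -0.445 for NPPB and MSX1 (adjusted permutation p = 0.0615), -0.0632 for NPPB and RASD2 (adjusted permutation p = 0.884), and between 0.284 and 0.556 for the 5 pairs of MSX1 or RASD2 with each other, HAS3 and SFRP1 (adjusted permutation p between 0.0615 and 0.407).

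**Figure D4:**
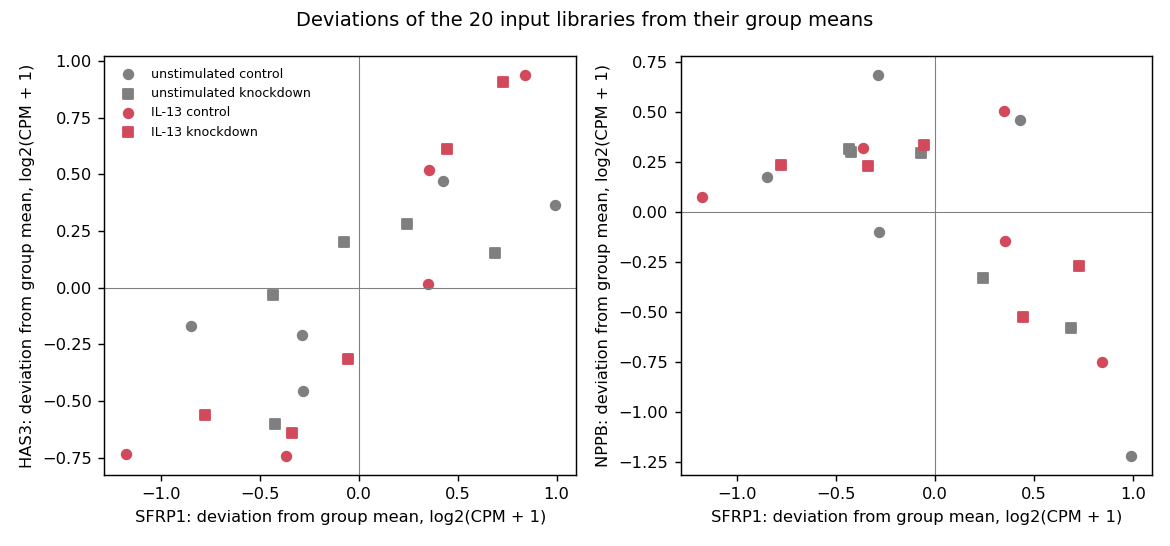
Deviation of each of the 20 input libraries from its group mean on the log2(CPM + 1) scale, HAS3 against SFRP1 (left) and NPPB against SFRP1 (right), by treatment (colour) and line (circle control, square knockdown). The left panel rises (r = 0.827) and the right panel falls (r = -0.636).

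In polysome RNA the 6 pairs among MSX1, RASD2, HAS3 and SFRP1 all deviated together, with r between 0.664 and 0.78 and adjusted permutation p of at most 0.00569. They lay between the 94.6th and 99.7th percentile of each first gene's correlations with the genes whose mean over all libraries was at least 1 CPM. Without the 2 libraries farthest out r was between 0.533 and 0.853. Without 4 libraries, the 3 under 5000000 counts and replicate 1 of unstimulated control cells, it was between 0.547 and 0.88. NPPB's 4 pairs there had r between -0.268 and 0.0424, none with an adjusted permutation p under 0.05. Deviations of input and polysome libraries of the same replicate number had r between -0.0948 (NPPB) and 0.395 (HAS3), with an adjusted permutation p of at least 0.815 over 5 genes. Compared with 1000 genes of like level, the spread between input libraries was large for SFRP1 (SD 0.66 of log2(CPM + 1), 99.1th percentile), NPPB (SD 0.53, 97.2th) and HAS3 (SD 0.58, 96.5th), and ordinary for RASD2 (60.7th percentile).

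Over all 40 libraries, centred on the mean of each fraction, 4 of the genes also resembled each other more than they resembled NPPB. This likeness contains the IL-13 difference the genes were chosen for and is a description. Among 14083 candidate genes of at least 1 CPM in a group, the gene most like HAS3 was MSX1 (Pearson's r = 0.857), followed by PPFIBP2 (0.844) and SNN (0.841). The gene most like SFRP1 was RASD2, then HAS3 (0.818) and JCAD (0.809). Among the genes most like MSX1 were HAS3 (0.857) and MB (0.83), and RASD2 was most like SPINT2 (0.858), MB (0.857) and CCDC86 (0.852). NPPB was most like RFLNA (0.844), CCL26 (0.843), which encodes the chemokine eotaxin-3, and SPINT2 (0.84), a Kunitz protease inhibitor. The other 4 members had ranks between 26 (RASD2) and 133 (HAS3) for it.

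Other genes of the members' pathways were counted in lists, to be read against the small share of all genes that were called. Lists of each system, without the members, had 0 genes called in either direction in the 4 single IL-13 comparisons: 8 of 17 natriuretic peptide genes, 17 of 25 hyaluronan genes, 34 of 46 Wnt genes, 26 of 28 MSX and BMP genes and 19 of 24 RASD and Ras-like genes could be tested. The share of all genes called higher was at most 0.0956% in these comparisons, so counts of 0 in lists of this size do not set the lists apart from other genes. At an unadjusted p under 0.05, between 0 and 3 genes of a list passed in a single comparison, where between 173 and 860 of all 16735 genes did, and the lists' medians in control input were -0.06, -0.13, -0.15, -0.06 and -0.02 in that order. Averaged over both lines, 1 gene rose and 1 fell, both in polysome RNA. PCSK6, a proprotein convertase, rose by a log2 fold change of 4.68 ± 1.06 (SE, edgeR adjusted p = 0.0425), from group means of 0.113 and 0.00555 TPM to 1.84 and 0.509 TPM. WNT7B, a Wnt ligand, had a log2 fold change of -0.82 ± 0.19 (SE, edgeR adjusted p = 0.0404).

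The closest relatives of the members were mostly near 0 or not called. Of the natriuretic peptides, NPPA was at 0 in 39 of 40 libraries and NPPC had group means of at most 0.612 TPM. The receptor genes NPR1 and NPR3 had group means of at most 0.343 and 5.98 TPM, with IL-13 log2 fold changes of -0.68 ± 0.87 and -0.36 ± 0.48 in control input. HAS3 was the one hyaluronan synthase these cells expressed, HAS1 and HAS2 each being at 0 in 39 of 40 libraries. The hyaluronan receptor CD44 had group means between 27.3 and 57.6 TPM and a log2 fold change of -0.26 ± 0.37 with IL-13 in control input. Of SFRP1's family, SFRP4 had positive values in each comparison (1.37 ± 0.72, 0.88 ± 0.70, 1.04 ± 0.72 and 1.14 ± 0.71, in the order used above) at group means of at most 2.74 TPM and was not called. FRZB had -0.16 ± 0.61 in control input, and SFRP2 and SFRP5 were too low to test. FZD2, a Frizzled receptor, had -0.05 ± 0.40. MSX2 had 0.42 ± 0.88 at group means of at most 0.682 TPM, and BMPR2, a BMP receptor, had -0.10 ± 0.24. RASD1, the relative of RASD2 known as a dexamethasone-induced Ras protein, had -2.68 ± 1.18 in control and -0.01 ± 1.12 in knockdown input, and -4.58 ± 1.32 in control and 0.40 ± 1.29 in knockdown polysome RNA, and was not called.

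**Figure D5:**
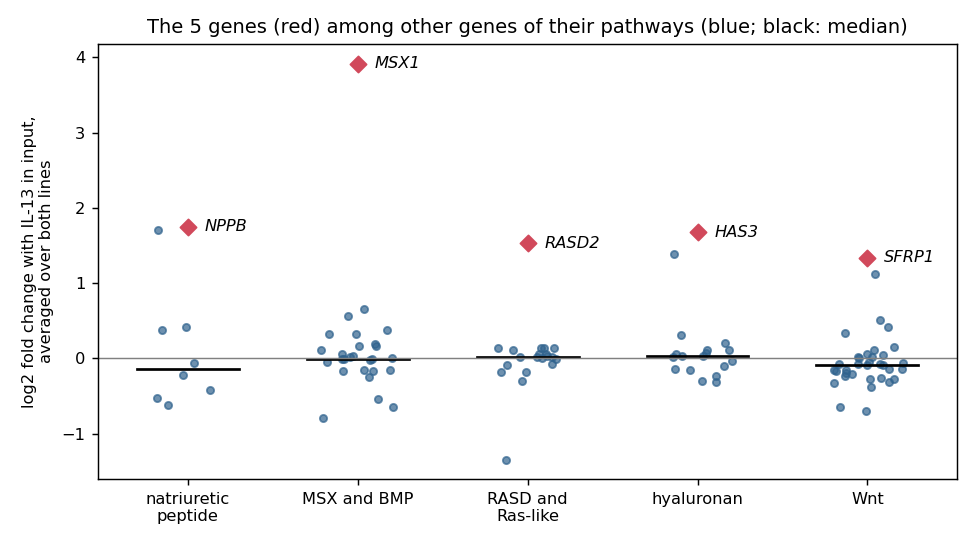
Log2 fold change with IL-13 in input RNA, averaged over both lines, for the 5 genes (red diamonds) and the other tested genes of their lists (blue points, scattered sideways for visibility; black line, median of the list without the member). Each member lies above the medians of its list, which are near 0; the members were chosen for this difference, so their position is a description.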

How the data were processed

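Stranded poly(A) libraries of 40 samples, 8 groups of 5, were analysed from 1 table of 62263 Ensembl gene IDs, of which 62246 matched a symbol and 17 did not. The authors deposited estimated counts and TPM side by side, per the file headers. MultiQC, Trimmomatic, Salmon and DESeq2 are named in the submitters' processing notes. The genome build and the annotation behind the deposited values are not given in the sources used here, nor is whether counting used strand. TPM columns summed to between 82.3% and 85.9% of what a complete TPM table sums to. The columns of the table name the hairpins siC and siIGF2BP3, while the protocol describes stable lines.

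Rounded to whole numbers, the estimated counts were fitted with edgeR 4.0.16 in R 4.3.3: TMM scaling, filterByExpr (16735 genes kept), 1 mean per group over 40 libraries, 32 residual degrees of freedom, and quasi-likelihood tests with Benjamini-Hochberg adjustment over all genes at 0.05. The members and the gene lists were chosen with earlier results of these data known. The 5 members were named throughout. Other genes were named where they head a member's likeness list, are its closest relatives, or were called. One gene of a likeness list is not reported here. The IL-13 comparisons chose the members and are given without p-values. Averages over both lines, and 2 of the promoter motifs, were added after seeing the data. Alternatives were other scalings, no filter, only the libraries compared, a replicate block, deeper libraries, DESeq2 1.42.0, limma 3.58.1 on log2(TPM + 0.1), and each library left out. Input libraries held a median of 26189353 estimated counts and polysome libraries 19124845. On simulated data with 200 changed genes, drawn at random, the comparison of the lines in IL-13 input recovered 25% of 2-fold and 63% of 4-fold changes, which is not the recovery for the members. Promoters came from RefSeq (3 of 5 genes matched) and positions from GENCODE v29. Figures used matplotlib 3.10.9 in Python 3.11.15.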

Additional observations from a re-analysis of the deposited data

Results flagged for a closer look

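Of 40 sets of 5 libraries (5 genes in 8 groups), 5 held a library that stood far from the rest by Dixon's criterion, where chance gives about 2. NPPB measured 454.7 CPM in replicate 1 of IL-13 control polysome RNA, against 147.4 to 213.8 CPM in the other 4. Without it the IL-13 log2 fold change in control polysome RNA was 1.66 in place of 2.04, and the difference of that effect between polysome and input was -0.23 in place of 0.15. NPPB also measured 116.1 CPM in replicate 5 of unstimulated control polysome RNA, against 35.9 to 47.1 CPM in the others. Without that library the IL-13 log2 fold change was 2.46.

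MSX1 measured 13.52 CPM in replicate 2 of IL-13 control polysome RNA, from 307 counts, against 1.41 to 4.74 CPM in the others. Its IL-13 log2 fold change without this library was 4.56 in place of 5.51 and was no longer called. In replicate 1 of unstimulated knockdown polysome RNA MSX1 measured 1.247 CPM, from 5 counts, against 0 to 0.228 CPM. Without that library its log2 fold change in knockdown polysome RNA was 4.23 in place of 3.16.

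RASD2 measured 9.62 CPM in replicate 1 of IL-13 control input, against 3.20 to 4.72 CPM in the others. Without it the IL-13 log2 fold change in control input was 1.23 in place of 1.58, and the difference of that effect between the lines in input was 0.26 in place of -0.09.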

How the results depend on the processing

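The IL-13 log2 fold change of each member was above 0 under each alternative run, in 90 values for each single comparison and 140 for each average, and 5 of 5 members were called in both averages under 8 alternatives and in 20 fits that left out 1 library. The members were chosen on these effects and the averages were added after seeing the data, so this stability is a description. The counts of members called in single comparisons did change, and the cause was not tested. Beside each count, the number of all genes called in either direction is given in parentheses. In control input they were 0 with only the libraries compared (8 genes) and 4 with DESeq2 (33 genes). In knockdown input they were 2 in the 38 libraries without replicate 1 of unstimulated control cells (18 genes). There they were 2 with only the libraries compared (19 genes) and 3 with DESeq2 (22 genes). In control polysome RNA they were 0 with only the libraries compared (3 genes) and 4 with DESeq2 (61 genes). In knockdown polysome RNA they were 2 with no filter (16 genes), 2 with the replicate block (14 genes) and 0 with libraries of at least 5000000 counts (10 genes). There they were 4 with DESeq2 (36 genes) and 2 with limma on TPM (17 genes). With only the libraries compared, polysome against input in IL-13 knockdown cells had 1 member called, where 6779 of all genes were called. Leaving out 1 library gave 1 to 3 members in control input, 0 to 1 in knockdown input, 1 to 2 in control polysome, 0 to 2 in knockdown polysome RNA and 0 to 1 for polysome against input in unstimulated control cells. The counts over all genes in these fits are not given, so the ranges are a description.

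Some values in the tested comparisons changed sign, and not all of them were near 0 in the main fit. For the IL-13 effect in polysome minus input, SFRP1 in control cells was -0.0011 with DESeq2 size factors, -0.0011 with DESeq2's test and -0.0037 with a replicate block of the culture, NPPB in control cells was -0.12 in 38 libraries, and in knockdown cells MSX1 was 0.018 with the replicate block, 0.48 in deeper libraries and 0.11 with limma, and HAS3 -0.087 in deeper libraries. For the IL-13 effect in knockdown minus control, HAS3 in input was 0.027 with the replicate block, 0.051 in 38 libraries and 0.20 with limma, RASD2 in input 0.071 with limma, and HAS3 in polysome RNA -0.18 in deeper libraries. MSX1 in polysome minus input was -0.34 in unstimulated knockdown cells (deeper libraries, 0.57 in the main fit) and -0.010 in IL-13 control cells (limma, 0.29 in the main fit). Knockdown minus control was 0.13 for RASD2 in unstimulated polysome RNA (38 libraries) and -0.032 for MSX1 in unstimulated input (limma).

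Leaving out 1 library gave these ranges where a sign changed. Knockdown minus control: RASD2 -0.28 to 0.13 and SFRP1 -0.0047 to 0.55 in unstimulated polysome RNA, MSX1 -0.54 to 0.88 and SFRP1 -0.044 to 0.49 in unstimulated input. Polysome minus input: MSX1 -0.51 to 1.18 in unstimulated knockdown, -1.501 to 0.11 in unstimulated control, -0.65 to 0.65 in IL-13 control and -0.020 to 0.73 in IL-13 knockdown cells, and NPPB -0.037 to 0.57 in unstimulated control cells. In the main fit the unstimulated control values were -0.70 for MSX1 and 0.39 for NPPB. The IL-13 effect in polysome minus input: RASD2 -0.67 to 0.093, HAS3 -0.51 to 0.39, NPPB -0.23 to 0.57 and SFRP1 -0.32 to 0.24 in control, MSX1 -0.76 to 0.92, SFRP1 -0.15 to 0.42 and HAS3 -0.068 to 0.59 in knockdown cells. The IL-13 effect in knockdown minus control: HAS3 -0.30 to 0.29, RASD2 -0.51 to 0.26 and SFRP1 -0.24 to 0.32 in input, HAS3 -0.14 to 0.80 and SFRP1 -0.074 to 0.49 in polysome RNA.

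Replicate numbers were not taken to pair the samples: correlations of same-numbered libraries were all above 0.1 in 0 of 4 pairs of groups that share cells and in 1 of 24 other pairs. MSX1 had 0 to 14 counts in an untreated library, so its untreated levels carry a wide counting error, and its log2 fold change in control input was 3.38 with limma on TPM.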
